A study of Mus musculus with 12 samples.

Results

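Ventricles that lacked the histone deacetylase gene Hdac2 were compared with ventricles that carried it, at embryonic day 16.5 of the mouse, with 6 arrays on each side. All 12 arrays of the series took part. The side without Hdac2 held 3 arrays labelled Hdac2-null (Hdac2 knockout, Hopx intact) and 3 labelled double-null (Hdac2-Hopx knockout). The side with Hdac2 held 3 Wild-type arrays and 3 labelled Hopx-null (Hopx knockout, Hdac2 intact). Members were chosen by these labels alone, and the status of Hopx, lost on 3 arrays of each side, entered the fit as a covariate. RNA was total RNA from the cardiac ventricle of independent embryos, hybridised to single-colour Affymetrix arrays. The labels do not state the alleles, the strain, or whether either knockout was limited to some cell types.

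Hdac2 is a class I histone deacetylase. It removes acetyl groups from lysines of histones and other proteins as the catalytic subunit of the NuRD, Sin3 and CoREST complexes, which mostly hold genes at low expression, and it shares these complexes with its close relative Hdac1. Hopx is a small homeodomain protein of heart muscle that does not bind DNA itself and that acts in part through Hdac2. In the embryonic ventricle both have been studied as regulators of cardiomyocyte proliferation and of genes driven by serum response factor and Gata4.

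Signals below a floor of 82.5 units were raised to that floor before the log2 step, and 9667 of 18193 genes rose above it on at least 1 array and were tested. Over all 45101 probe sets, before the floor, the log2 signals of any pair of arrays correlated between 0.992 and 0.998. Over the tested genes, after the floor, the median correlation of an array with the others ran from 0.984 to 0.991. The 12 markers of working ventricular muscle were all above the floor, with a summed signal between 299880 and 312197 units on Hdac2-absent arrays and between 304453 and 317684 on Hdac2-present arrays. The 3′ to 5′ signal ratio of Actb, a measure of RNA integrity, had a median log2 value of 2.73 without and 2.76 with Hdac2 (exact two-sided permutation p = 0.351 for the difference of means). That of Gapdh was 0.962 without and 0.987 with Hdac2 (exact two-sided permutation p = 0.474 for the difference of means). Xist, the RNA that coats the inactive X, was at 4988 units or more on 2 of 6 Hdac2-absent and 3 of 6 Hdac2-present arrays and at 22.2 or less on the others. Each side thus held ventricles of both sexes, in proportions that differed between the sides.

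The targeted gene separated the sides on every array. Hdac2 signal ranged from 4.04 to 4.32 units, with a median of 4.05, on Hdac2-absent arrays, against 4442 to 5683 with a median of 4661 on Hdac2-present arrays. With every Hdac2-absent array under the floor, this is at least 58.8-fold lower without Hdac2 (log2 difference -5.88, SE 0.07, adjusted p = 8.57e-14 in limma). Another Hdac2 probe set averaged 4.78 ± 0.07 units without and 3068 ± 256 with Hdac2 (SD, n = 6 each). On the same Hdac2-absent arrays, markers of other cells of the ventricle were well above the floor, with summed signals of 26234 units or more for endothelium and 76739 or more for fibroblasts. The sources used here do not say where these probe sets lie relative to the deleted part. Hopx, lost on 3 arrays of each side, averaged 12042 ± 317 in Hdac2-null against 9817 ± 2080 in Wild-type ventricles (SD, n = 3 each). With Hopx knocked out it averaged 1700 ± 38.6 in double-null against 1992 ± 111 in Hopx-null ventricles. Its difference by Hdac2 status was 0.04 on the log2 scale (SE 0.11, adjusted p = 0.934). A second Hopx probe set, which ranged from 9.70 to 1558 units without and from 9.70 to 1145 with Hdac2, measured 0.43 (SE 0.20, adjusted p = 0.543 over all probe sets). Hdac1 had a median of 3859 units without Hdac2 and 3586 with it, with overlapping ranges (log2 0.10, SE 0.06, adjusted p = 0.627).

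Across all tested genes, 4 passed an adjusted p of 0.05, which is 0.0414% of 9667, with 2 higher (0.0207%) and 2 lower (0.0207%) without Hdac2. At an adjusted p of 0.2 the count was 41 (0.424%). Besides Hdac2 they were Tnni2 and Tdrkh, which rose, and Ctsc, which fell. A further 4 genes lay at adjusted p between 0.05 and 0.06, which were Cerox1, Sall4, Paqr9 and Meioc. An unadjusted p under 0.05 was found for 874 genes (9.04%), against 483 that would be counted if no gene differed, and 361 of them were higher (3.73%) and 513 lower (5.31%). The 6 arrays of one side lay wholly above or wholly below the other 6 for 59 genes (0.61%), 33 above (0.341%) and 26 below (0.269%). Differences were small in most genes: the median size of the log2 difference, sign left out, was 0.06, and the median SE was 0.08. With the sign kept, the middle of all log2 differences was -0.01. In total 44.7% of genes measured above and 55.3% below 0.

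**Figure D1:**
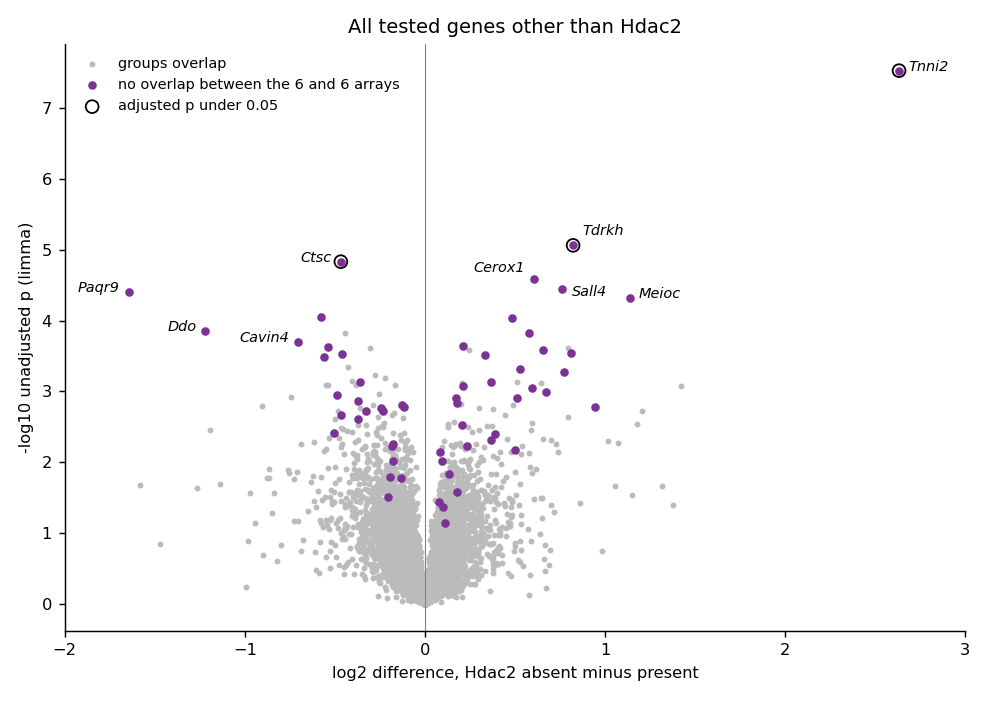
Each point is a tested gene other than Hdac2, with the log2 difference of Hdac2-absent minus Hdac2-present arrays on the x axis and the negative log10 of the unadjusted limma p on the y axis. Circled points passed an adjusted p of 0.05, and purple points did not overlap between the 6 and 6 arrays. Tnni2, at 2.63, stands alone on the right, and Tdrkh and Ctsc are the other circled genes.

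Tnni2 rose most. It encodes troponin I of fast skeletal fibres, the inhibitory subunit of the complex through which calcium switches on contraction. Tnni3 encodes the cardiac isoform. The 3 Hdac2-null ventricles had 438.9, 664.8 and 925.7 units and the 3 double-null ventricles 363.8, 551.3 and 549.9 units, against 27.7, 45.0 and 84.6 in Wild-type and 133.7, 39.1 and 23.3 in Hopx-null ventricles. No Hdac2-absent array overlapped any Hdac2-present array, and 4 of the 6 Hdac2-present arrays were under the floor. The log2 difference was 2.63 (SE 0.21, 95% interval 2.16 to 3.10, 6.20-fold, adjusted p = 0.000144). It was 2.96 with Hopx intact and 2.31 with Hopx lost, and the interaction of both losses did not pass the test (unadjusted p = 0.123, adjusted p = 0.942). A second Tnni2 probe set averaged 103 ± 28.3 units without and 37.4 ± 11.4 with Hdac2 (SD, n = 6 each, adjusted p = 0.513 over all probe sets), and another was near 4.48 units on both sides. In ventricular RNA, a gain in the number of cells with a transcript and a gain of transcript per cell cannot be told apart, here and in all results that follow.

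Tnni2 moved without the other transcripts of skeletal muscle. Of 13 skeletal muscle markers, 11 stayed at the floor on each of the 12 arrays, among them Myod1 and Myog, the transcription factors of the skeletal lineage, and Tnnt3, Tnnc2 and Mylpf, other parts of the fast fibre apparatus. All 11 were at 6.09 units or less on every Hdac2-absent array. The 2 that were above it, Acta1 and Ckm, are also made by heart muscle. Acta1, skeletal alpha-actin, ranged from 341.8 to 1786 with a median of 855.5 units without Hdac2, against 664.6 to 2345 with a median of 1410 with it (log2 -0.85, SE 0.39, adjusted p = 0.563). Ckm, muscle creatine kinase, had medians of 7428 and 7662 units in the same order (log2 -0.10, SE 0.06, adjusted p = 0.655). In the wider list of fast and slow skeletal isoforms and myogenic factors, 18 of 27 genes were at the floor throughout, and of the 9 tested only Tnni2 was called.

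**Figure D2:**
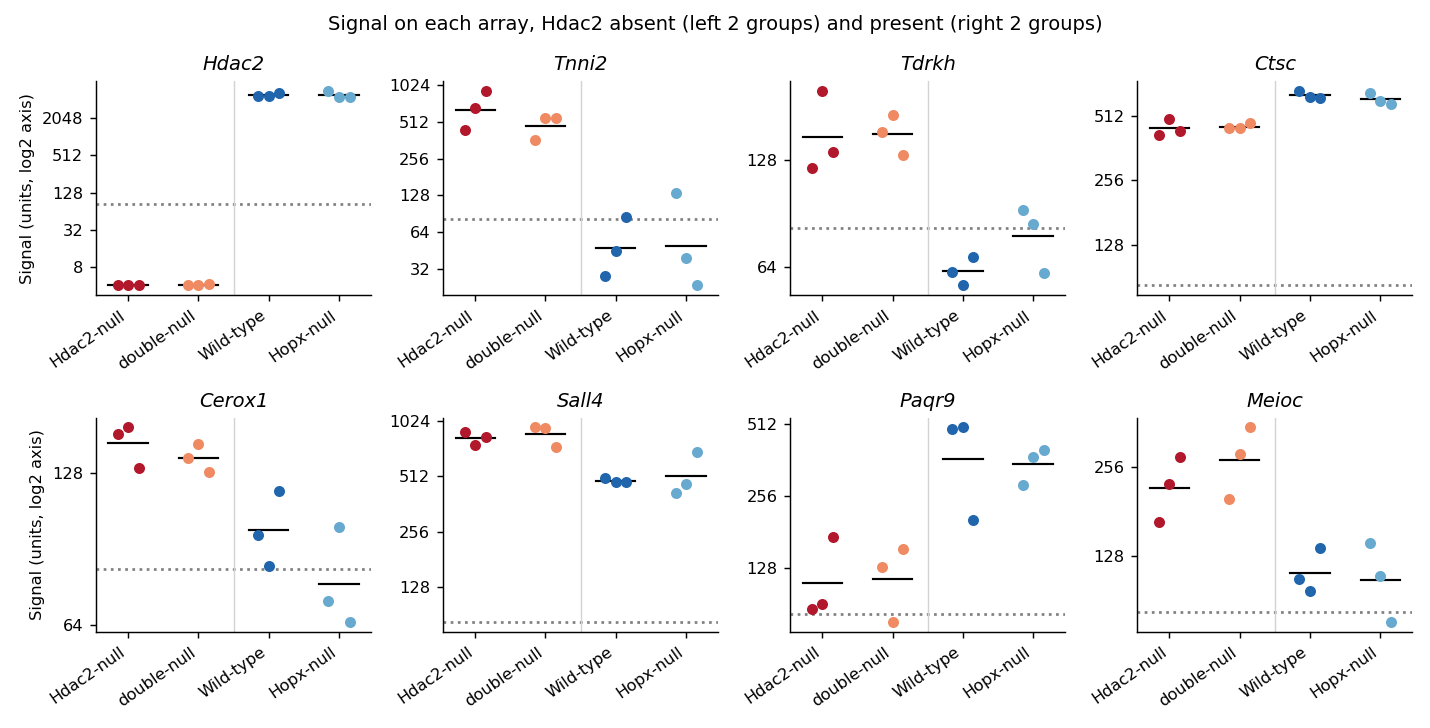
Signal on each array, on a log2 axis, for the 4 called genes and the 4 genes next in order of p, with Hdac2-null and double-null arrays left of the vertical line and Wild-type and Hopx-null arrays right of it. Bars are group means of log2 signal and the dotted line is the floor of 82.5 units. In each of the 8 genes the 6 arrays on the left lie wholly above or wholly below the 6 on the right.

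The other called gene that rose was Tdrkh. Tdrkh, a tudor and KH domain protein that germ cells need to trim piRNA precursors at mitochondria, had 121.3, 199.1 and 134.2 units in Hdac2-null and 152.6, 170.7 and 131.9 in double-null ventricles, against 62.2, 57.0 and 68.3 in Wild-type and 92.8, 84.6 and 61.6 in Hopx-null ventricles. The sides did not overlap, and the Hdac2-present arrays were near or under the floor (log2 0.82, SE 0.11, 1.77-fold, adjusted p = 0.0279). The size depends on the floor: the log2 difference was 1.10 with no floor and 0.05 with the floor doubled, and the doubled floor ended the call. The call held when Wild-type 3, Hdac2-null 1, Hdac2-null 2, Hopx-null 1 or double-null 3 was left out. Without any 1 of the other 7 arrays (Wild-type 1, Wild-type 2, Hdac2-null 3, Hopx-null 2, Hopx-null 3, double-null 1 or double-null 2) the adjusted p was between 0.0533 and 0.115, and with a term for sex it was 0.0636.

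Among the higher genes that missed the threshold were some with known roles in germ cells or the early embryo. Meioc, which germ cells need to stay in meiotic prophase, ranged from 166.7 to 348.3 units with a median of 250.5 without Hdac2, against 76.3 to 141.2 with a median of 108.2 with it. The ranges did not overlap, but the gene missed the threshold (log2 1.14, SE 0.18, adjusted p = 0.0584). Sall4, a zinc finger transcription factor of pluripotent and germ cells that binds the NuRD complex, ranged from 736.2 to 942.6 units with a median of 862.8 without Hdac2. On Hdac2-present arrays it ranged from 414.2 to 695.1 with a median of 477. Its log2 difference was 0.76 (SE 0.12, adjusted p = 0.0536), and again no array of one side reached into the other. Zfp57, a zinc finger protein that keeps methylation at imprinted genes in the embryo, measured 376.1 to 554.6 against 274.2 to 371.9 units (log2 0.53, SE 0.11, adjusted p = 0.176). Gpc2, a glypican of the cell surface, measured 389 to 689.2 against 210.3 to 378 units (log2 0.77, SE 0.16, adjusted p = 0.19). Neither Zfp57 nor Gpc2 overlapped between the sides.

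Start regions are shown for the called genes Tdrkh and Ctsc and for Meioc, which missed the threshold. Those of Hdac2, Cerox1, Cercam and Ddo were also read and are not printed, and none was available for Tnni2. Each runs from 250 bases before to 50 bases after the annotated start, 5′ to 3′ on the plus strand of GRCm38.p6. Capitals mark motifs searched on both strands, which were the E-box written CACGTG, the core of the E2F site written GCGGGA, and the usual form of the TATA box written TATAAA. The Tdrkh region is chr3:94412994-94413293, the Meioc region chr11:102665335-102665634 and the Ctsc region chr7:88277835-88278134.
Tdrkh: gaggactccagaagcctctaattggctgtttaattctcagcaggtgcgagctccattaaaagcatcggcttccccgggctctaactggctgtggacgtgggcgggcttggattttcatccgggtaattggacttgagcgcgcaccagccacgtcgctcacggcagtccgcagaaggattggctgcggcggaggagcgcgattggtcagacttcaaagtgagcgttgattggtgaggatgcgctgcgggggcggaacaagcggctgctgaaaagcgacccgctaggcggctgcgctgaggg
Meioc: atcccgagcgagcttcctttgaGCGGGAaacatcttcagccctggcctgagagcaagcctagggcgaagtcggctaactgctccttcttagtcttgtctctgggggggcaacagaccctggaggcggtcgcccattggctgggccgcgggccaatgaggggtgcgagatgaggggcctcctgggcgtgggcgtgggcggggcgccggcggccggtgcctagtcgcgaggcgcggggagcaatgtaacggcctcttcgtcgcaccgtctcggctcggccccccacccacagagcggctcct
Ctsc: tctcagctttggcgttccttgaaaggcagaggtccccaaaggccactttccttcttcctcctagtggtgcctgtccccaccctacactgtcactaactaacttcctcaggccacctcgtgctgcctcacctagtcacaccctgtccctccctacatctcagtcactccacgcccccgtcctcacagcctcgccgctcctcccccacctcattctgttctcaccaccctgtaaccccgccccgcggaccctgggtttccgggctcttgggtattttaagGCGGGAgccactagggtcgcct
These regions hold 25, 28 and 12 CG dinucleotides, where over 27025 promoters of this length the median was 7 and the upper quartile 21. The E2F core was found once in the Meioc and once in the Ctsc region, and 20% of all promoters hold it. The E-box, which 7.24% of promoters hold, and the TATA box, which 14.2% hold, were in none of the 3 windows. The regions of Hdac2, Cerox1, Cercam and Ddo, not printed, hold 36, 22, 21 and 3 CG dinucleotides. Among those, the E-box was found once each for Cerox1 and Ddo, and the E2F core 2 times each for Hdac2 and Cercam.

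The germline list as a whole was mostly silent. Of its 35 meiosis, germ cell and piRNA genes, 34 were on the array, 25 never rose above the floor, and 9 were tested. Tdrkh was the 1 called. The list median was 0 with Hopx intact and 0.33 with Hopx lost, and the joint median of 0.26 was the value of Rec8, a meiotic cohesin subunit named after its values were seen, at the floor on 10 of 12 arrays. In the joint fit 4 of the 9 had an unadjusted p under 0.05 (44.4%, against 9.04% of all genes), all 4 higher. Only genes above the floor on at least 1 array were tested, and the list was chosen with earlier results of these data known. This share thus describes the list and is no support for a shift of it. Syce2, a protein of the synaptonemal complex, was another of the 4, with 599 to 949.9 units and a median of 833.6 without Hdac2 against 492.3 to 741.7 and a median of 618.2 with it (log2 0.35, SE 0.13, adjusted p = 0.512). A list of 27 genes held Rest itself and neuronal genes that REST keeps silent in other tissues, and 3 were tested. Rest measured 0.15 (SE 0.05, adjusted p = 0.446), and the neuronal genes Bex1 and Uchl1 measured 0.14 and -0.28.

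Ctsc was the called gene that fell besides Hdac2. It encodes cathepsin C, a lysosomal protease that activates the granule proteases of leukocytes and is also made by other cells. Its signal was 414.6, 494.6 and 435.9 units in Hdac2-null and 447.5, 446.6 and 471.0 in double-null ventricles, against 668.5, 623.8 and 617.6 in Wild-type and 651.0, 599.8 and 583.0 in Hopx-null ventricles. Arrays within a side lay close together and the sides did not overlap (log2 -0.47, SE 0.07, 1.38-fold lower, adjusted p = 0.0356). The call held without Wild-type 3 or without Hdac2-null 2. Without any 1 of the other 10 arrays the adjusted p was between 0.052 and 0.169, and with a term for sex it was 0.0786.

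Markers of leukocytes and macrophages lay lower beside it. Of 14 such markers, 7 never rose above the floor and 7 were tested, 6 of them below 0. Unadjusted p was under 0.05 for 5 of the 7 (71.4%, against 9.04% of all genes), all lower, and none was called. Csf1r, the receptor for macrophage colony-stimulating factor, had medians of 3776 units without and 4316 with Hdac2 (log2 -0.18, SE 0.05, adjusted p = 0.367). Laptm5, a lysosomal membrane protein of blood cells, had medians of 1609 and 1973 in the same order (log2 -0.29, SE 0.09, adjusted p = 0.403), and Fcer1g, an adaptor of Fc receptors, 491 and 612.9 (log2 -0.31, SE 0.10, adjusted p = 0.441). The summed signal of the 14 markers ranged from 13282 to 16288 units with a median of 15595 on Hdac2-absent arrays, against 15068 to 21779 with a median of 18081 on Hdac2-present arrays. Fermt3, kindlin-3, which activates integrins in blood cells, measured 441.9 to 598.1 against 619 to 872.9 units without overlap (log2 -0.56, SE 0.11, adjusted p = 0.13). The part of leukocyte content in the Ctsc difference was not tested.

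Several other genes of the 30 with the smallest p have known roles in muscle or mitochondria. Cavin4, a coat protein of muscle caveolae, ranged from 817.3 to 1123 units with a median of 999.6 without Hdac2, against 1322 to 2047 with a median of 1519 with it (log2 -0.71, SE 0.13, adjusted p = 0.124). Coro6, a coronin of actin filaments, had medians of 4769 and 5394 units in the same order (log2 -0.22, SE 0.05, adjusted p = 0.199). Adssl1, the muscle isoform of adenylosuccinate synthetase, had medians of 1552 and 2135 (log2 -0.41, SE 0.09, adjusted p = 0.199). Of these, Cavin4 alone did not overlap between the sides. Mrps35, a protein of the mitochondrial ribosome, measured log2 -0.43 (SE 0.09, adjusted p = 0.176). Cerox1, a long non-coding RNA known to regulate transcripts of respiratory complex I, lay the other way, at 128.6 to 157.4 units against 64.9 to 117.9 without overlap (log2 0.61, SE 0.09, adjusted p = 0.0507).

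Abcc8 encodes the sulfonylurea receptor, the regulatory subunit of the potassium channel that opens when ATP is low. It ranged from 700.6 to 872.6 units with a median of 813.1 without Hdac2, against 914.8 to 1410 with a median of 1148 with it (log2 -0.54, SE 0.10, adjusted p = 0.124). Kcnj11, its pore-forming partner, was chosen after its values were seen and ranged from 587.4 to 701.6 against 703.4 to 883 units (log2 -0.36, SE 0.08, adjusted p = 0.199). Neither gene overlapped between the sides, and neither passed the test. Ddit4, an inhibitor of the growth kinase mTORC1 that is induced by stress and low oxygen, had medians of 3746 and 4736 units in the same order (log2 -0.31, SE 0.06, adjusted p = 0.124). When Wild-type 3, the only Wild-type array with low Xist, was left out, 26 genes were called, Ddit4 and Abcc8 among them.

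The rest of the 30 genes with the smallest p, 15 in each direction, had varied roles. Paqr9, of the progestin and adipoQ receptor family, had 85.9, 90.6 and 172.9 units in Hdac2-null and 129.3, 76.0 and 154.4 in double-null ventricles, against 489.0, 495.3 and 202.4 in Wild-type and 284.0, 371.1 and 397.6 in Hopx-null ventricles. Its log2 difference of -1.64 (SE 0.26, adjusted p = 0.0536) was larger in size than that of any other gene in the 30 except Hdac2 and Tnni2. Its second probe set measured -0.40 over 28.9 ± 4.24 units without and 93.0 ± 76.0 with Hdac2 (SD, n = 6 each). Grk5, a kinase that turns off G protein-coupled receptors, ranged from 1983 to 2295 against 1496 to 1943 units (log2 0.33, SE 0.07, adjusted p = 0.128). Prkcd, the delta isoform of protein kinase C, ranged from 201.2 to 246.3 against 102.3 to 186.9 units (log2 0.65, SE 0.13, adjusted p = 0.124). Gprasp2, which sorts G protein-coupled receptors to lysosomes, ranged from 920.5 to 1281 against 417.4 to 800.4 units (log2 0.81, SE 0.16, adjusted p = 0.128). None of these 4 overlapped between the sides.

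Foxp2, a forkhead repressor known for its part in neural and lung development, measured 408.3 to 558.6 against 236 to 386.4 units (log2 0.58, SE 0.11, adjusted p = 0.113), but its second probe set differed by 0.20 only. Cercam, an adhesion protein described in brain endothelium, measured 1110 to 1354 against 789 to 1107 units (log2 0.48, SE 0.08, adjusted p = 0.0875). Ripor2, an inhibitor of RhoA, measured log2 0.21 (SE 0.04), and Alcam, an immunoglobulin family adhesion molecule, measured 0.25 (SE 0.05), both at adjusted p = 0.124. Dcaf12l1 measured 0.79 (SE 0.15, adjusted p = 0.124). Of the 15 higher genes, 13 did not overlap between the sides, the exceptions being Dcaf12l1 and Alcam (over all genes, 0.341%). On the lower side, Ank, a membrane protein that exports ATP and pyrophosphate, measured -0.44 (SE 0.08, adjusted p = 0.113). Sh3bp5, a mitochondrial partner of the kinase JNK, measured -0.46 (SE 0.09, adjusted p = 0.128), Agtpbp1, which removes glutamates from tubulin, -0.28 (SE 0.06, adjusted p = 0.199), and 2310075K07Rik -0.58 (SE 0.10, adjusted p = 0.0875). Of the 15 lower genes, 9 did not overlap (over all genes, 0.269%). Both sets were picked by small p in the same comparison, so these counts only describe them.

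Ddo, which encodes D-aspartate oxidase, lies on chromosome 10 with Hdac2, 13 tested genes away. It ranged from 706.4 to 1461 units with a median of 1092 without Hdac2, against 1775 to 4475 with a median of 2179 with it, and the sides did not overlap (log2 -1.22, SE 0.22, adjusted p = 0.113). A second Ddo probe set averaged 54.1 ± 10.1 against 188 ± 71.9 units (SD, n = 6 each, log2 -1.12, adjusted p = 0.0726 over all probe sets). Among the 40 tested genes nearest to Hdac2, 20 on each side, 21 measured above and 19 below 0, with a median of 0.01, and 4 in each direction had an unadjusted p under 0.05, 20% in all against 9.04% of all tested genes. Strain differences around the targeted locus were not tested.

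The comparison joins a pair of contrasts that share no array: Hdac2-null against Wild-type, with Hopx intact, and double-null against Hopx-null, with Hopx lost. Each called 2 genes (0.0207%), Hdac2 and Tnni2. An unadjusted p under 0.05 was found for 5.11% of genes with Hopx intact and 8.13% with Hopx lost, and the interaction of both losses called 0 genes (0%), with 404 at an unadjusted p under 0.05 (4.18%) in limma. Across genes, which are not independent replicates, the log2 differences of the contrasts correlated at 0.365, and at 0.291 without Hdac2 and Tnni2, and 54.5% of the 9667 genes had the same sign in both. Of the 9667, 103 genes other than Hdac2 had an unadjusted p under 0.01 with Hopx intact, and 82 of them (79.6%) had the same sign with Hopx lost. Of 164 such genes with Hopx lost, 120 (73.2%) had the same sign with Hopx intact. The lists shared 17 of the 9667 genes, 16.5% of the first and 10.4% of the second, and all 17 went the same way in both. They were Tnni2, Tdrkh, Cerox1, Sall4, Meioc, Cercam, Foxp2, Ripor2, Dcaf12l1, Gprasp2 and Grk5, which lay higher, and Ctsc, Paqr9, 2310075K07Rik, Abcc8, Cavin4 and Sh3bp5, which lay lower. Both contrasts used a common estimate of each gene's spread, so a gene of low spread tends to enter both lists, and the shared count only describes them. Sall4 measured 0.77 with Hopx intact and 0.76 with Hopx lost, and Ctsc -0.51 and -0.42.

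**Figure D3:**
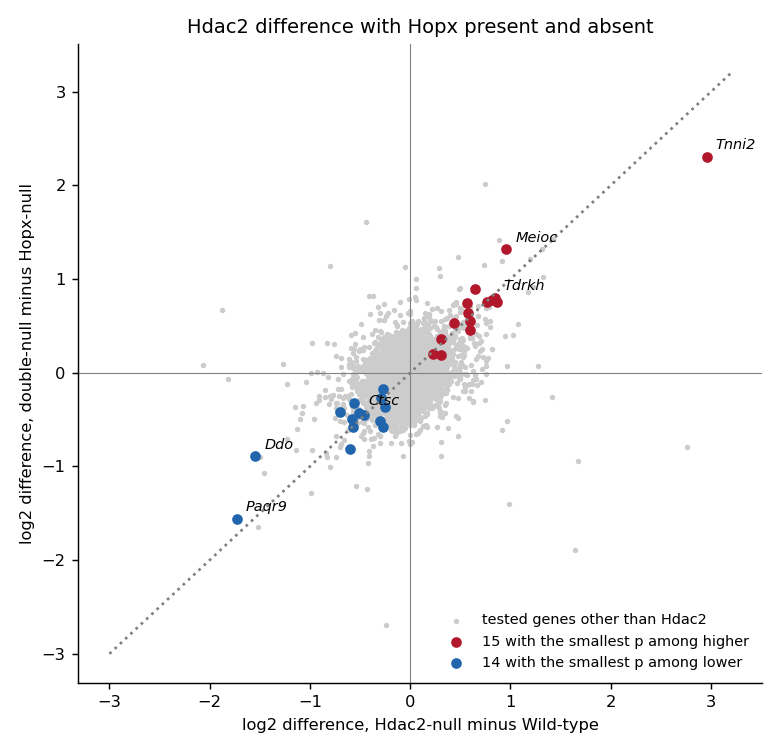
Log2 difference of Hdac2-null minus Wild-type arrays (x axis) against that of double-null minus Hopx-null arrays (y axis) for each tested gene other than Hdac2, with the line of equal size dotted. The 15 higher genes with the smallest p in the joint fit are red and the 14 lower ones blue, and each lies in the quadrant where both contrasts share its sign, a direction that their choice from the joint fit favours. The contrasts share no array, and the correlation over all genes, Hdac2 included, was 0.365.

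Genes of the contractile, fetal and growth programme that this study's question bears on did not pass. Myh6 and Myh7, the cardiac myosin heavy chains, measured -0.01 (SE 0.03) and 0.02 (SE 0.02). A second Myh6 probe set averaged 3764 units without and 4344 with Hdac2 (log2 -0.20, SE 0.24, adjusted p = 0.819 in limma over all probe sets). Nppa and Nppb, the natriuretic peptides, measured -0.25 (SE 0.14) and 0.18 (SE 0.12). Gata4, a transcription factor of heart muscle, measured 0.03 (SE 0.05), with a 95% interval of -0.08 to 0.15. Ccnd2, a D cyclin, measured -0.08 (SE 0.05), and Cdk4, its partner kinase, 0.01 (SE 0.07). Other Ccnd2 probe sets ran from -0.29 to 0.04. Those at -0.29 and -0.28 had an unadjusted limma p of 0.0124 and 0.00932 (adjusted p = 0.477 and 0.443 over all probe sets). Inpp5f, a phosphoinositide phosphatase, measured 0.24 (SE 0.15), with medians of 2189 units without and 1758 with Hdac2. On the probe set that represents each gene, the adjusted p of these 8 genes ran from 0.626 to 0.988, and their ranges overlapped between the sides. The sign of Gata4, Nppa and Myh7 turned on the low-Xist arrays alone, that of Myh6 also with arrays centred on the median, and that of Myh6 and Cdk4 when single arrays were left out.

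Cell cycle lists were near the middle of all genes. In the G1/S and DNA replication list, 11 of 27 tested genes measured above and 16 below 0, with a median of -0.02. Its median was -0.06 with Hopx intact and 0.04 with Hopx lost. On the probe set that represents each gene, 0 had an unadjusted p under 0.05 in limma. In the G2/M and mitosis list 15 of 25 lay above and 10 below, with a median of 0.02, and again 0 had an unadjusted p under 0.05. No list member other than Hdac2, Tnni2 and Tdrkh was called. The class I deacetylases and their complex subunits had 13 of 23 above 0 and Hdac2 alone under an unadjusted p of 0.05. Cardiac transcription factors had 13 of 21 above 0, a median of 0.02 and 1 at an unadjusted p under 0.05, Foxp1, a forkhead repressor (log2 0.12, SE 0.05, adjusted p = 0.526). The median of all tested genes, for comparison, was -0.01.

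In the sarcomere and metabolic lists most members measured slightly below 0. Of 25 sarcomere genes, 19 measured below 0, with a median of -0.03, and 5 had an unadjusted p under 0.05 (20%, against 9.04% of all genes), all lower. Tcap, telethonin of the Z-disc, had medians of 778.1 units without and 1259 with Hdac2 (log2 -0.55, SE 0.12, adjusted p = 0.199), and Mybpc3, cardiac myosin-binding protein C, measured -0.10 (SE 0.03, adjusted p = 0.439). Mb, myoglobin, counted with the skeletal isoforms, had medians of 14446 and 19060 units in the same order (log2 -0.29, SE 0.07, adjusted p = 0.272). Of 28 oxidative phosphorylation genes, 26 measured below 0, with a median of -0.05, and 8 (28.6%) had an unadjusted p under 0.05, all lower. Their steps were small, as in Cox5b of complex IV (log2 -0.05, SE 0.02) and Ndufa9 of complex I (log2 -0.07, SE 0.03), both at adjusted p = 0.513. Of 25 glycolysis and hypoxia genes, 19 measured below 0, with a median of -0.07, and 8 (32%) had an unadjusted p under 0.05, all lower. Eno3, muscle enolase, had medians of 17478 and 19257 units (log2 -0.17, SE 0.04, adjusted p = 0.291). Slc16a3, the lactate exporter, had medians of 511.6 and 739.4 (log2 -0.45, SE 0.14, adjusted p = 0.41). Fatty acid uptake and oxidation genes had 20 of 25 below 0, a median of -0.03 and 2 at an unadjusted p under 0.05 (8%, near the share of all genes). Their median was 0.01 with Hopx intact and -0.09 with Hopx lost. No gene of these 4 lists was called, and 55.3% of all tested genes measured below 0.

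**Figure D4:**
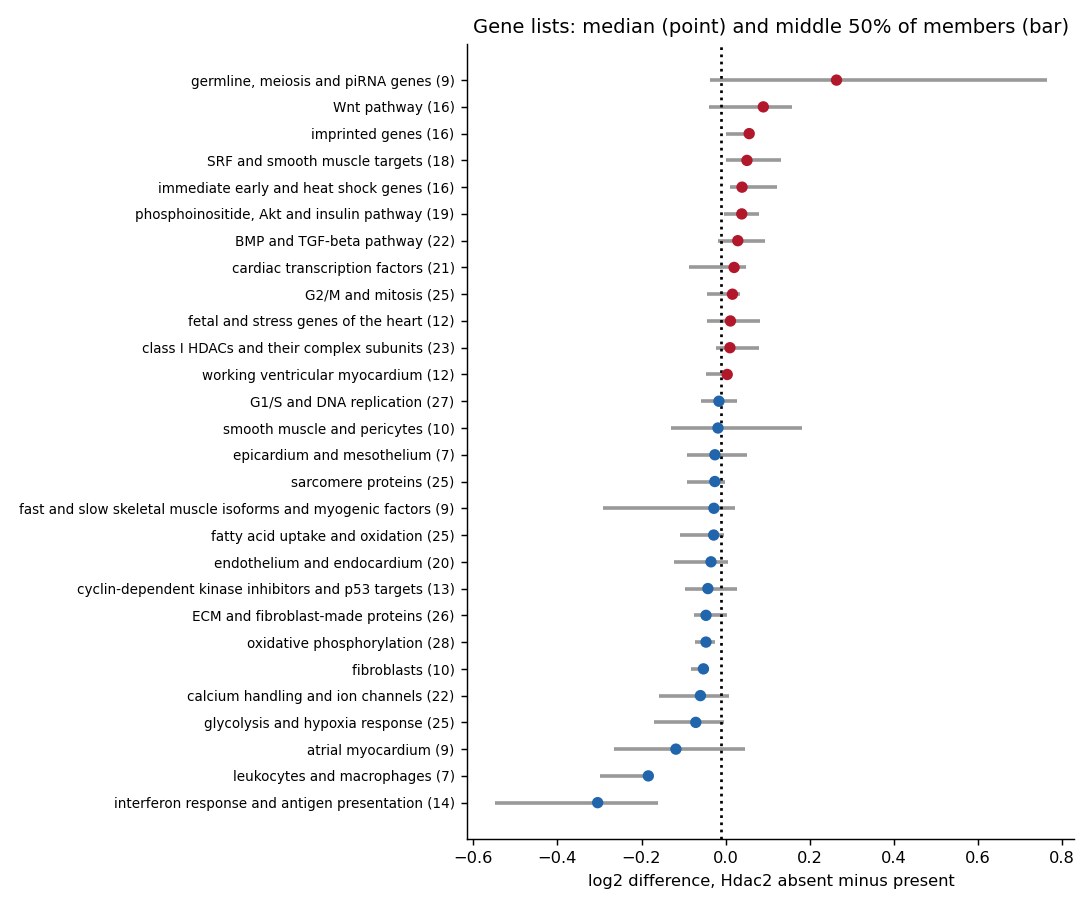
Median (point) and middle 50% (bar) of the log2 difference of Hdac2-absent minus Hdac2-present arrays over the tested members of each gene list with at least 5 of them, with the number of tested members in brackets. The dotted line is the median of all tested genes, -0.01, and points are red above and blue below it. Germline genes (0.26, with 25 of 34 at the floor and not shown, and 0 with Hopx intact) lie farthest right and interferon genes (-0.30) farthest left, and most other lists lie near the line.

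Among lists with at least 5 tested genes, interferon response and antigen presentation genes had the lowest median, -0.30. Of 14 tested, 13 measured below 0 and 2 had an unadjusted p under 0.05 (14.3%, against 9.04% of all genes), both lower. Rsad2, an antiviral enzyme induced by interferon, ranged from 591.9 to 1739 units with a median of 1086 without Hdac2, against 1001 to 2616 with a median of 1676 with it (log2 -0.61, SE 0.26, adjusted p = 0.517). Oasl2, another interferon-induced gene, measured -0.60 (SE 0.23, adjusted p = 0.513). Their ranges overlapped between the sides, and 13 of its 27 members on the array were at the floor throughout. On the 7 low-Xist arrays alone the list median was -0.08.

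In the Wnt, imprinted and smooth muscle lists most members measured above 0, with few at small p. Of 16 Wnt pathway genes, 11 measured above 0, with a median of 0.09 and 1 at an unadjusted p under 0.05 (6.25%, against 9.04% of all genes), Tcf7l2, a nuclear effector of the pathway (log2 0.11, SE 0.05, adjusted p = 0.517). Of 16 imprinted genes, 12 measured above 0, with a median of 0.06, and 2 had an unadjusted p under 0.05 (12.5%), Igf2, a fetal growth factor (log2 0.08, SE 0.03), and Peg12 (log2 0.25, SE 0.09). Of 18 targets of serum response factor and smooth muscle genes, 13 measured above 0, with a median of 0.05, and 2 higher and 1 lower had an unadjusted p under 0.05 (16.7%). Acta2, smooth muscle alpha-actin, had medians of 24812 units without and 22510 with Hdac2 (log2 0.20, SE 0.07, adjusted p = 0.512), while Smtn, smoothelin, lay lower without overlap (log2 -0.21, SE 0.08, adjusted p = 0.513). In the BMP and TGF-beta list 15 of 22 lay above 0, with a median of 0.03, and the ligand Tgfb2 measured 0.31 (SE 0.10, adjusted p = 0.427). Of 26 matrix genes 19 lay below 0, with a median of -0.05. Timp1, an inhibitor of matrix proteases, lay above without overlap (log2 0.39, SE 0.11, adjusted p = 0.37), and Col3a1, a fibrillar collagen, measured -0.07 (SE 0.02, adjusted p = 0.398).

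Marker levels of other cell types were as follows. Atrial markers summed to between 60015 and 73447 units, with a median of 67040, without Hdac2, against 65694 to 82498 with a median of 74030 with it, and 6 of 9 tested lay below 0, with a median of -0.17 with Hopx intact and 0.09 with Hopx lost. Among them Myl7, the atrial myosin light chain, measured -0.38 (SE 0.15, adjusted p = 0.513). Nppa, counted in both the atrial and the ventricular marker list, had medians of 21013 units without and 26314 with Hdac2. Fibroblast markers summed to a median of 80128 units without and 83301 with Hdac2, and 9 of 10 lay below 0. Endothelial markers summed to medians of 28616 and 29116 units, and 14 of 20 lay below 0, with 0 at an unadjusted p under 0.05 in limma. Their median difference was 0.04 with Hopx intact and -0.15 with Hopx lost. Markers of smooth muscle and pericytes summed to medians of 40527 and 38838 units, with 5 of 10 above 0, and their median difference was 0.04 and -0.12 in the same order of Hopx status. All 7 lung and all 7 thymus markers were at the floor on every array. The liver genes Alb and Afp were above it on 1 array only, Hdac2-null 3, at 176.2 and 204.6 units. Ttr, another liver marker, was above it on Hdac2-null 2, Hdac2-null 3 and Hopx-null 1, at 109.6, 188.0 and 104.8 units. The part of these cell type differences in the gene results was not tested.

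The number of calls moved with the processing while the leading gene did not. Hdac2 and Tnni2 were called under 31 of 31 alternative settings, Tdrkh under 18 and Ctsc under 16. Wild-type 3 had the largest single effect: without it 26 genes were called, among them Cerox1, Paqr9, Meioc, Sall4, Mb and Tcap. Xist was at 9.5 units on Wild-type 3 and at 6016 and 6130 on the other Wild-type arrays. Leaving out Wild-type 3 therefore also changed the balance of the sexes, and the cause of the added calls was not tested. With a term for sex, or on the low-Xist arrays alone, 2 genes were called, Hdac2 and Tnni2. Array weights, which count each array by how well it follows the model, gave 24 calls.

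**Figure D5:**
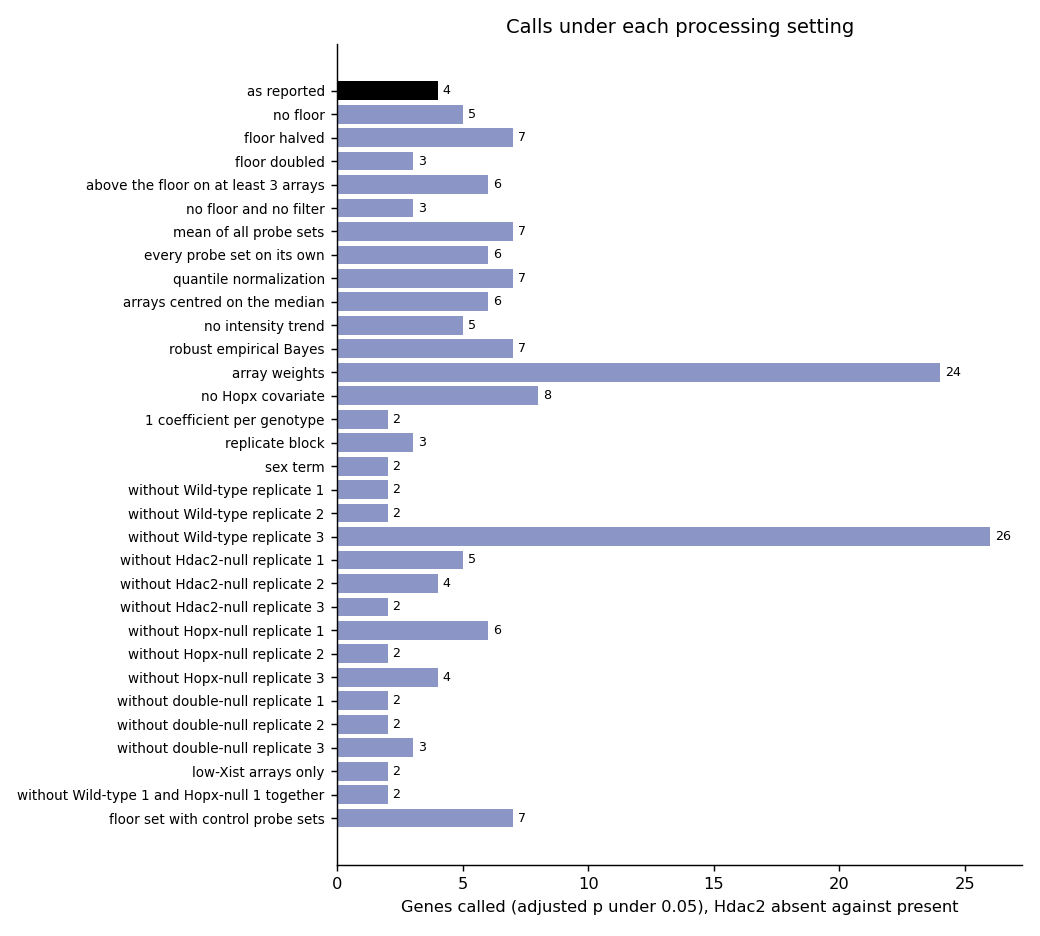
Number of genes called at an adjusted p under 0.05, Hdac2 absent against present, as reported (black, 4) and under each of 31 alternative settings (blue). Hdac2 and Tnni2 are among the calls in every bar, and the bars run from 2 to 26 genes.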

How the data were processed

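The authors' deposited table gives intensities, not logged, of 45101 probe sets on 12 arrays. MAS5 is the tool that the submitters' processing notes list, without a version, although 48.6% of deposited intensities lay within 1 unit of 4.5 and the upper quartile ran only from 559.4 to 587.4 over arrays, so the method behind the values is uncertain. No further normalisation was applied. The floor was the mean over arrays of the 2% trimmed mean signal, control probe sets left out, multiplied by 0.1. A log2 difference understates a change where the floor raised arrays of the lower side. Each gene was represented by the probe set with the highest mean, among 34945 that the platform annotation pairs with 1 gene, and start regions are RefSeq's (GRCm38.p6). Genes at the floor on all arrays were left out.

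An additive model of Hdac2 and Hopx status was fitted to all 12 arrays in limma 3.58.1 (R 4.3.3), with 9 residual degrees of freedom and an intensity trend. The p-values were adjusted by Benjamini-Hochberg over 9667 genes, and every adjusted p comes from limma. Exact permutation tests used scipy 1.17.1. The number of arrays limits the precision.

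The genes and lists were chosen with earlier results of these data known. Named genes were both targets, 10 fixed genes, the called genes filled to the 15 genes of smallest p in each direction and up to 4 of smallest p per list. The alternatives covered the floor, the filter, the probe set rule, normalisation, model terms and arrays left out.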

Additional observations from a re-analysis of the deposited data

Results flagged for a closer look

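On the log2 scale after the floor, 5 values stood far from the other 5 of their side, over 22 genes and 2 sides checked, where chance gives about 1 in 20. Hopx-null 1 had the highest Tnni2 signal among Hdac2-present arrays, 133.7 units against 23.3 to 84.6 on the other 5. The same array had the highest Tdrkh signal there, 92.8 units against 57.0 to 84.6. In both genes 4 of these other 5 arrays were raised to the floor of 82.5 units, which makes the gap stand out. Hopx-null 3 had the highest Sall4 signal among Hdac2-present arrays, 695.1 units against 414.2 to 498.2. Without Hopx-null 3 the Sall4 difference passed the test (log2 0.86, adjusted p = 0.00433). Double-null 3 had the highest Hdac1 signal among Hdac2-absent arrays, 4242 units against 3774 to 3929. Wild-type 3 had the lowest Nppa signal among Hdac2-present arrays, 16674 units against 24346 to 28863.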

How the results depend on the processing

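Of 31 alternatives, Hdac2 and Tnni2 were called under all 31 (Tnni2 log2 0.98 to 3.52), Tdrkh under 18 (0.05 to 1.10) and Ctsc under 16 (-0.49 to -0.16). The joint comparison called 7 genes with the floor halved, with the mean of all probe sets, with quantile normalization, with robust empirical Bayes or with the floor set with control probe sets (82.9 units), 24 with array weights, 8 with no Hopx covariate, 6 with 1 test per probe set, with arrays centred on the median or with genes above the floor on at least 3 arrays, and 2 with 1 coefficient per genotype, with a sex term, on low-Xist arrays only or without Wild-type 1 and Hopx-null 1 together. Leaving out 1 array gave 2 to 26 calls, the 26 without Wild-type 3. The floor with control probe sets, the low-Xist arrays and the removal of both arrays were chosen after seeing the data, and the cause of these moves was not tested. Hdac2-null against Wild-type called 1 gene with no floor, with the mean of all probe sets and on low-Xist arrays, and 2 to 4 with 1 array left out. Double-null against Hopx-null called 1 gene with no floor, with the floor halved or doubled, with no floor and no filter, with the mean of all probe sets and with the replicate block, 5 without Wild-type 1 and Hopx-null 1 together, and 1 to 3 with 1 array left out. The interaction called 0 to 1 genes with 1 array left out. With the replicate block the joint comparison called 3 genes, Hdac2, Tnni2 and Tdrkh, and Ctsc had adjusted p = 0.134. The same numbers did not deviate together in every pair (r across genes 0.33, -0.25 and -0.15 between Hdac2-null and Wild-type, 0.29, -0.11 and 0.22 between double-null and Hopx-null), so they were not taken to pair the ventricles. Between other groups r was 0.42, 0.42 and 0.15 (Hopx-null and Wild-type), 0.21, 0.17 and 0.12 (Hdac2-null and Hopx-null), 0.25, 0.10 and 0.25 (double-null and Hdac2-null) and 0.12, -0.25 and 0.05 (double-null and Wild-type). Signs turned, with none called, on low-Xist arrays for Cdk4 (-0.00368), Gata4 (-0.0238), Hopx (-0.185), Myh6 (0.0322), Myh7 (-0.0279) and Nppa (0.0728), with the mean of all probe sets for Sdha (0.0301), with arrays centred on the median for Myh6 (0.00797) and, with both Wild-type 1 and Hopx-null 1 left out, for Hopx (-0.0204). With 1 array left out Hopx ran from -0.0255 to 0.0881, Cdk4 from -0.0376 to 0.0622 and Myh6 from -0.0257 to 0.0150.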
